A study of Mus musculus with 6 samples.

Results

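Keratins are the intermediate filament proteins of epithelial cells, and 10 of their genes that are expressed in salivary epithelium were followed in embryonic submandibular glands (eSMGs). They were chosen by gene symbol, as the keratins of basal progenitor cells (Krt5, Krt14, Krt15 and Krt17), of simple epithelium (Krt8 and Krt18), of ducts (Krt7 and Krt19) and of stratified mucosa (Krt4 and Krt13). All 10 symbols were found, each on 1 line, among 23260 gene lines, and all 10 were among the 13610 genes that passed a filter on low counts and were tested. The glands were E14 eSMGs of ICR mice, collected after 6 h of ex vivo culture either without drug (control) or in the presence of 50 µM AMD3100, which blocks the chemokine receptor CXCR4. No genetic change was made in either group. Each group had 3 libraries, and each library came from a tube of up to 10 pooled glands. The labels do not say whether the tubes came from separate litters, so p-values measure the spread between these tubes only. Whole glands were used, and fewer cells of a type and less RNA per cell cannot be told apart in them.

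A keratin filament is built from equal parts of a type I and a type II keratin, and the partners are used in fixed combinations by different epithelia. KRT5 and KRT14 form the filaments of basal cells, KRT8 and KRT18 those of simple and early embryonic epithelium, and KRT4 and KRT13 those of the suprabasal layers of non-cornified oral mucosa. In the developing submandibular gland, KRT5 and KRT14 mark progenitor cells, while KRT7 and KRT19 become features of the ducts as they mature.

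The genes lie in the mouse keratin clusters (RefSeq, GRCm38.p6). The type I genes Krt13 (chr11:100117327-100121566), Krt15 (chr11:100131759-100135949), Krt19 (chr11:100140810-100145926), Krt14 (chr11:100203162-100207510) and Krt17 (chr11:100256215-100261029) lie in the same cluster on the minus strand, with other keratin genes such as Krt16 among them. The type II genes Krt5 (chr15:101707069-101712905), Krt4 (chr15:101918535-101924735) and Krt8 (chr15:101996711-102004342) are on the minus strand of the other cluster, and Krt7 (chr15:101412403-101427806) is on its plus strand. Krt18, although type I, lies beside its partner Krt8, at chr15:102028216-102032026 on the plus strand.

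The starts of 4 genes are shown because their levels moved in different ways across the libraries, with Krt5 and Krt8 varying together, Krt18 varying little, and Krt7 differing between the groups. Each stretch runs from 80 bases before the annotated start to 20 bases after it on the gene's own strand (RefSeq, GRCm38.p6), and capitals mark ATAAA, letters that also occur in the core of a TATA box. The motif was chosen after the sequences were seen.
Krt5: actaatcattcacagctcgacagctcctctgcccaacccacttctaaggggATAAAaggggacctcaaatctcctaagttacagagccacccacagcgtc
Krt8: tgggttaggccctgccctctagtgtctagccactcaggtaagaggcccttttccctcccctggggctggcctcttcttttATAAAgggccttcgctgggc
Krt18: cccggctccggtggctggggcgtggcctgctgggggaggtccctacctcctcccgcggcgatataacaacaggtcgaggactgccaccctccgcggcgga
Krt7: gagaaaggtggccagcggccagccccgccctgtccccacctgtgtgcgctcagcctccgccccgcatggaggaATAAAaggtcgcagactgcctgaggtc
These stretches are chr15:101712886-101712985 for Krt5, chr15:102004323-102004422 for Krt8, chr15:102028136-102028235 for Krt18 and chr15:101412323-101412422 for Krt7. ATAAA was present on the gene's strand for Krt5, Krt8 and Krt7, and also for Krt13, and in Krt18 it was on neither strand. Its first letter was 29 bases before the annotated start in Krt5 and in Krt13, 7 bases before it in Krt7, and at the start itself in Krt8. It was thus found in 4 of the 5 members with a sequence at the outermost start, and in 10.5% of 32851 mouse promoter stretches of the same 100 bases on the gene's strand (16.6% on either strand).

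The authors deposited reads counted per gene symbol from 3′ mRNA libraries, in which reads come from the ends of transcripts. Levels below are therefore CPM (counts scaled to the total of the library with TMM factors) and were not divided by transcript length. Library totals were 11532946, 13127539 and 10869528 counts in control replicates 1 to 3 and 14393031, 11358828 and 9051595 in AMD3100 replicates 1 to 3. The floor was set at 3 counts, which is 0.208 to 0.331 CPM at these totals before the TMM factors and covers counting error only, since copies made by PCR are not independent molecules. The smallest number of reads behind a member in any library was 8, for Krt13 in AMD3100 replicate 2, and the largest was 23724, for Krt15 in AMD3100 replicate 1.

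Replicate 3 of both groups stood apart from the other 4 libraries, which bears on most of the keratin values below. The log2 CPM of all genes correlated between control replicate 3 and AMD3100 replicate 3 with r = 0.954, against 0.813 to 0.902 for the other pairs of a control and an AMD3100 library. Epithelial marker genes other than keratins (18 listed, 17 tested), of which Cdh1 was the most abundant, summed to 863, 861 and 512 CPM in the controls and 926, 992 and 914 CPM with AMD3100. Mesenchymal markers (16 genes, led by Col3a1) summed to 4701, 4651 and 2467 CPM in the controls and 4692, 4642 and 2113 CPM with AMD3100.

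The mesenchymal sum was thus low in replicate 3 of both groups, and the epithelial sum was low only in control replicate 3. Not all mesenchymal markers followed their sum. For 5 of the 16, replicates 1 and 2 were all above both replicate 3 libraries, and for 3 the reverse held (21.1% and 23.1% of all genes). The most abundant, Col3a1, was at 406 and 414 CPM in replicate 3 and at 1390 to 1419 CPM in the other 4 libraries. With Cdh1 left out, the epithelial sum was low in replicate 3 of both groups, at 302 and 408 CPM against 526 to 599 CPM in the other 4 libraries. Skeletal muscle markers (16 of 17 tested, led by Myog) went the other way, with 397, 417 and 2328 CPM in the controls and 277, 246 and 3144 CPM with AMD3100. Summed nerve and ganglion markers (15 genes, led by Prph) were 1516, 1213 and 1338 CPM in the controls and 1376, 1064 and 1865 CPM with AMD3100. Whether the share of muscle or of other tissue in replicate 3 set any keratin level was not tested, and results are also given for replicates 1 and 2 only.

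**Figure D1:**
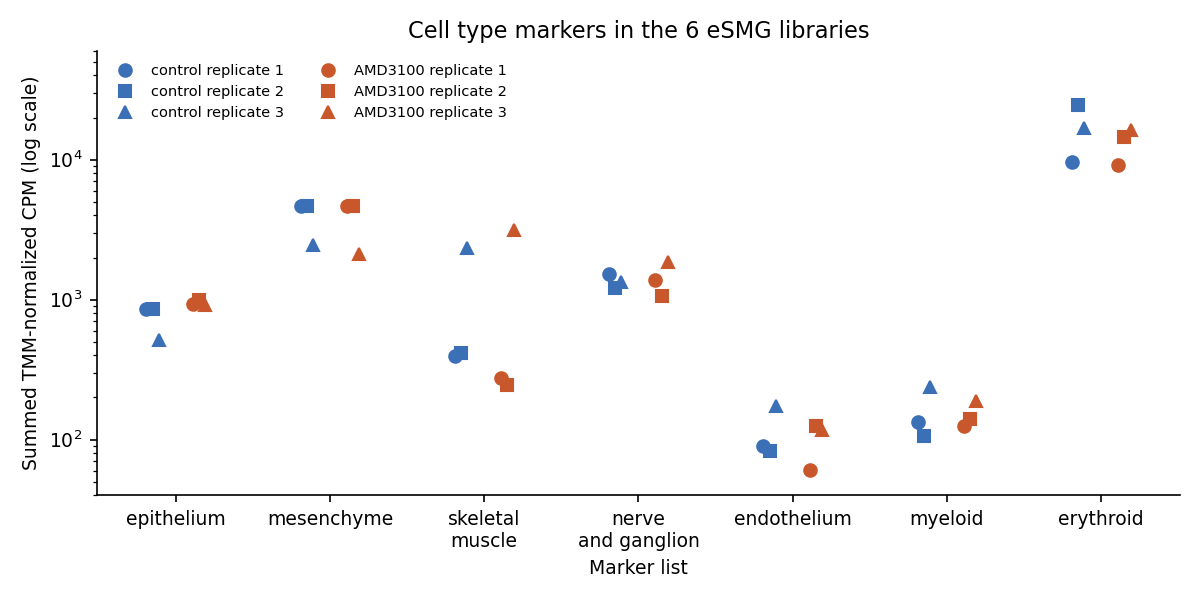
Summed TMM CPM (log axis) of the marker lists in each of the 6 libraries, with controls and AMD3100-treated eSMGs marked separately. The muscle sum reaches 2328 and 3144 CPM in the replicate 3 libraries and at most 417 CPM in the other 4.

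Keratin expression in the E14 eSMGs was mostly Krt15, a type I keratin of basal layers. Krt15 made up 67.8% of the summed CPM of the 10 members in the controls and 74.8% with AMD3100, and with a mean of 1297 CPM over the 6 libraries it ranked 49th of all 13610 genes tested. Krt4 was next with 157 CPM, below Krt15 in all 6 libraries by 4.83-fold to 21.5-fold. Krt18 (79.7 CPM), Krt14 (77.0 CPM) and Krt5 (73.0 CPM) could not be put in order, as each stood above the next in only 3 libraries. Krt4 was above Krt18 in 5 libraries. Krt8 (52.0 CPM) was below Krt5 in 6 of 6 libraries, by 1.11-fold to 1.65-fold. Krt19 (32.5 CPM) was below Krt8 in 4 libraries, which leaves those neighbours unordered. Krt17 (15.9 CPM) was below Krt19 in 5 libraries. Krt17 and Krt7 (15.1 CPM) could not be ordered either, with Krt17 the higher in 2 libraries. Krt13 was lowest in all 6, at 2.53 CPM.

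**Figure D2:**
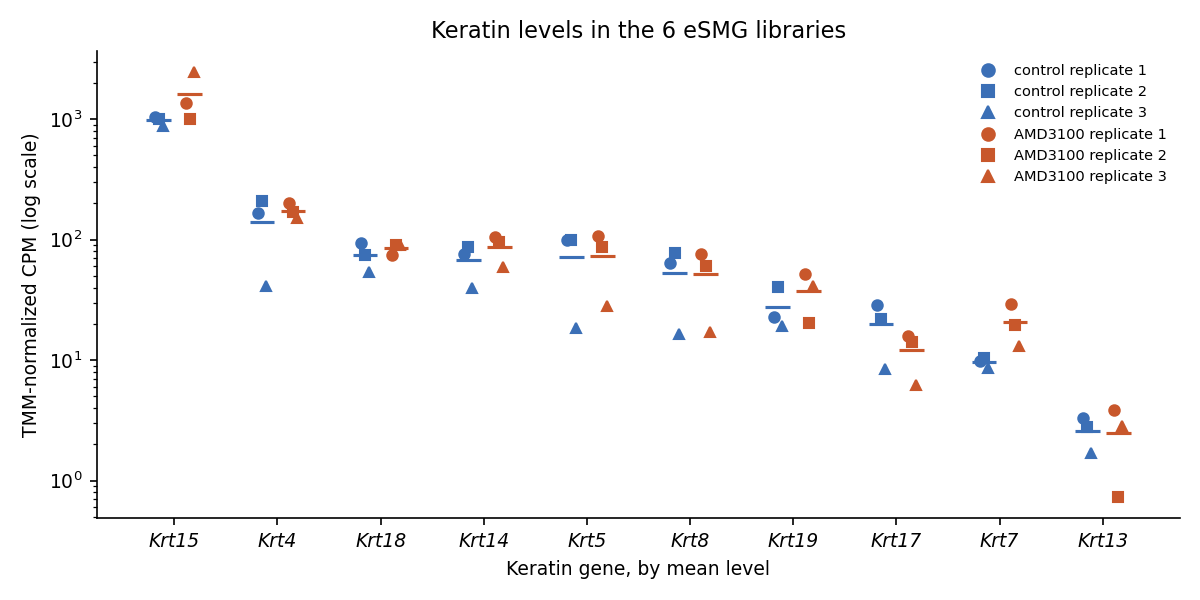
TMM CPM (log axis) of the 10 keratins in order of mean level, with a point for each of the 3 control and 3 AMD3100 libraries and a bar at each group mean. Krt15 lies between 887 and 2468 CPM and Krt13 between 0.736 and 3.85 CPM, and for Krt7 alone all AMD3100 points lie above all control points.

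Between AMD3100-treated and control eSMGs, Krt7 was the only keratin of the 10 to pass the thresholds given in the study's main text. These are a fold change over 1.5 and an unadjusted p under 0.05, here in edgeR's quasi-likelihood test. Of all 13610 genes tested, 228 (1.68%) passed these thresholds, 54 of them higher (0.397%) and 174 lower (1.28%) with AMD3100. After Benjamini-Hochberg adjustment over all genes, 0 of the 10 keratins and 0 of 13610 genes had an adjusted p under 0.05 in edgeR, and DESeq2 called 5 genes, none of them a member. The median log2 fold change over the keratins was 0.26, with 7 positive and 3 negative values, and over all genes tested it was 0.02, with 7100 positive and 6510 negative. The 3 AMD3100 libraries stood apart from the 3 controls for 1 of the 10 keratins, Krt7, and for 7.44% of all genes, AMD3100 being higher for 3.28% and lower for 4.17%. With 3 libraries in each group, an exact permutation test of a single gene cannot go below p = 0.1.

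Krt7, a type II keratin of ducts and other simple epithelia, was the ductal keratin that differed most. Its level was 9.79, 10.5 and 8.56 CPM in control replicates 1 to 3 and 29.1, 19.4 and 13.1 CPM in AMD3100 replicates 1 to 3. Every AMD3100 library was above every control, although AMD3100 replicate 3 was closest to the controls. The counts behind these levels were 112, 144 and 86 in the controls and 506, 211 and 107 with AMD3100. The means were 9.61 ± 0.968 and 20.5 ± 8.05 CPM (SD, n = 3 each, exact permutation p = 0.1, the smallest possible). The log2 fold change was 1.10 ± 0.41 (SE), which is 2.14-fold with a 95% interval of 1.13 to 4.05. In edgeR's test the unadjusted p was 0.0244 and the adjusted p 0.99999. The difference was 1.26 in replicates 1 and 2 only (edgeR, unadjusted p = 0.0144). Leaving out AMD3100 replicate 1 lowered it to 0.76 and ended the call (unadjusted p = 0.141 in edgeR). The call was also lost without control replicate 1 (1.10, edgeR unadjusted p = 0.0527) and without control replicate 3 (1.02, edgeR unadjusted p = 0.0573), with little change in the value. The study used KRT7 as its marker of duct differentiation and named Krt7 and Krt19 in its description of these same libraries, so their direction here is not independent evidence. The study also reported higher Krt7 with AMD3100 by qPCR and by immunostaining, and those data were not used here. In addition, 5 of 11 simulated reads (45.5%) from the last 300 bases of Krt7 also matched elsewhere in another mouse build (NCBIM37), with an equal or nearly equal score. The count of Krt7 may depend on how such reads were treated, which is not given in the sources used here.

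Krt19, the smallest type I keratin and a duct keratin as well, did not separate the groups. It stood at 22.9, 40.3 and 19.1 CPM in the controls and 51.4, 20.5 and 40.9 CPM with AMD3100. Replicates 1 and 3 were higher with AMD3100 and replicate 2 was lower. The means were 27.4 ± 11.3 and 37.6 ± 15.7 CPM (SD, n = 3 each), a 1.37-fold difference with a 95% interval of 0.692 to 2.71 (edgeR, unadjusted p = 0.322). The ratio of Krt7 to Krt19 in the same library was 0.427, 0.260 and 0.448 in the controls and 0.566, 0.946 and 0.320 with AMD3100, with overlapping groups (exact two-sided permutation p = 0.4). A difference in response between the ductal keratins was thus not detected.

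Among the basal keratins, Krt15 was higher with AMD3100 by a margin that rested largely on AMD3100 replicate 3. Its levels were 1040, 1010 and 887 CPM in the controls and 1364, 1014 and 2468 CPM with AMD3100. AMD3100 replicate 2 lay within the range of the controls, while the other AMD3100 libraries were above it. The means were 979 ± 81.3 and 1615 ± 759 CPM (SD, n = 3 each), with a log2 fold change of 0.72 ± 0.37 (SE), with an unadjusted p of 0.0798 in edgeR. In replicates 1 and 2 only it was 0.21. With replicate number as a block it was 0.62, and Krt15 then passed both thresholds (edgeR, unadjusted p = 0.0240, adjusted p = 0.703), as did 4.39% of all genes. The adjusted p was under 0.05 with the block for 0 of the 10 keratins and 3 of all genes (0.022%). Krt15 was higher with AMD3100 in all 3 same-numbered pairs, as were 15.7% of the genes tested.

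Krt14, the type I partner of Krt5, was also higher in all 3 same-numbered pairs. It stood at 75.4, 86.8 and 39.4 CPM in the controls and 105.6, 95.4 and 59.1 CPM with AMD3100, and AMD3100 replicate 3 lay below 2 of the controls. The means of 67.2 ± 24.7 and 86.7 ± 24.4 CPM (SD, n = 3 each) gave a 1.29-fold difference with a 95% interval of 0.713 to 2.34 (edgeR, unadjusted p = 0.356). In replicates 1 and 2 only, both AMD3100 libraries were above both controls, with a log2 fold change of 0.30. The groups did not overlap in these libraries for 37.0% of all genes tested. With the replicate block the log2 fold change was 0.40 and the unadjusted p 0.0403 in edgeR, but the fold change stayed under 1.5.

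Krt5, the type II keratin of basal cells, was nearly level between the groups. Its levels were 98.9, 99.2 and 18.5 CPM in the controls and 106.9, 86.6 and 28.1 CPM with AMD3100. The groups overlapped, and the low values in both were replicate 3. The means of 72.2 ± 46.5 and 73.9 ± 40.9 CPM (SD, n = 3 each) differed 1.02-fold with a 95% interval of 0.367 to 2.86. With the replicate block, the log2 fold change was 0.15 ± 0.19 (SE).

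Krt17, a basal keratin of ducts and skin appendages that is induced by stress, was the lower one of its class. It was 28.8, 22.1 and 8.46 CPM in the controls and 15.8, 14.3 and 6.25 CPM with AMD3100. It was lower with AMD3100 in all 3 same-numbered pairs (14.6% of the genes tested were), though control replicate 3 was below 2 AMD3100 libraries. The means were 19.8 ± 10.4 and 12.1 ± 5.11 CPM (SD, n = 3 each), with a log2 fold change of -0.71 ± 0.54 (SE), with an unadjusted p of 0.222 in edgeR. Without control replicate 3 the value was -1.07 and passed both thresholds (edgeR, unadjusted p = 0.0498), and without control replicate 1 it was -0.34 (unadjusted p = 0.579) and without AMD3100 replicate 3 -0.41. The adjusted p-values of Krt17 in all alternatives run lay between 0.765 and 0.99999.

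The simple epithelial keratins Krt8 and Krt18, which pair with each other, did not differ detectably between the groups. Krt8 stood at 64.0, 76.9 and 16.6 CPM in the controls and 76.6, 60.9 and 17.0 CPM with AMD3100, a log2 fold change of -0.03 ± 0.64 (SE), which is 0.982-fold with a 95% interval of 0.359 to 2.68. Krt18 stood at 93.9, 74.5 and 54.0 CPM in the controls and 75.0, 90.9 and 89.9 CPM with AMD3100. Krt8 was low in replicate 3 of both groups, and Krt18 was low in control replicate 3 but not in AMD3100 replicate 3.

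The group means of Krt8 were 52.5 ± 31.7 and 51.5 ± 30.9 CPM and those of Krt18 were 74.1 ± 19.96 and 85.3 ± 8.91 CPM (SD, n = 3 each). The fold change of Krt18 was 1.15, with a 95% interval of 0.717 to 1.85 (edgeR, unadjusted p = 0.519), and in replicates 1 and 2 only its log2 fold change was -0.03. The ratio of Krt8 to Krt18 was 0.682, 1.03 and 0.308 in the controls and 1.02, 0.670 and 0.190 with AMD3100, lowest in replicate 3 of each group. All 11 simulated reads from the last 300 bases of Krt8 matched both Krt8 and a place within Nlrp4e in NCBIM37, and 1 of 11 from Krt18 matched elsewhere. Matches of equal and of nearly equal score were not told apart. The count of Krt8 may therefore depend on how such reads were treated.

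Of the mucosal keratins, Krt4, the type II member, varied most with replicate 3 of the controls. Its levels were 167, 209 and 41.2 CPM in the controls and 202, 170 and 151 CPM with AMD3100. Control replicate 3 was far below the other 5 libraries, including AMD3100 replicate 3. The means of 139 ± 87.4 and 174 ± 25.8 CPM (SD, n = 3 each) gave a log2 fold change of 0.32 ± 0.52 (SE), with an unadjusted p of 0.546 in edgeR, and the value was -0.02 in replicates 1 and 2 only. Krt13, its type I partner in mucosa, was near the low end of what was tested, with 38, 38 and 17 counts in the controls and 67, 8 and 23 with AMD3100. The means of Krt13 were 2.59 ± 0.828 and 2.47 ± 1.59 CPM (SD, n = 3 each), with a fold change of 0.954 and a 95% interval of 0.210 to 4.34. The CPM of Krt4 exceeded that of Krt13 24.4-fold to 230.25-fold, so the RNA counts of the partners were far from equal in every library. The largest ratio rested on the 8 Krt13 counts of AMD3100 replicate 2. The amounts of the proteins were not measured in these libraries.

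Across the libraries, the keratins differed in how far they followed the split between replicate 3 and the rest. For Krt5, Krt14, Krt17, Krt8 and Krt4, all 4 libraries of replicates 1 and 2 were above both replicate 3 libraries, as they were for 21.1% of all genes tested. The mean of replicates 1 and 2 over that of replicate 3 was 4.20 for Krt5, 4.14 for Krt8 and 2.75 for Krt17. It was 1.94 for Krt4, 1.84 for Krt14 and 1.59 for Krt7. Krt13, Krt18 and Krt19 lay between 1.12 and 1.18, and Krt15 had a ratio of 0.660. For Krt15 the groups went opposite ways, since control replicate 3 was the lowest control (887 CPM) and AMD3100 replicate 3 the highest library (2468 CPM). Krt15 took 81.0% and 85.8% of the counts on the 10 members in replicate 3 of the control and AMD3100 groups, and 61.9% to 67.2% in the other 4 libraries, and in control replicate 3 its share was high while its level was not. The span from the lowest to the highest library was widest for Krt5, at 5.77-fold, and narrowest for Krt18, at 1.74-fold.

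Keratins that pair in a filament did not always vary together. The ratio of Krt5 to Krt14 was 1.31, 1.14 and 0.470 in the controls and 1.01, 0.907 and 0.475 with AMD3100. The ratio of Krt5 to Krt15 was 0.0952, 0.0982 and 0.0209 in the controls and 0.0784, 0.0854 and 0.0114 with AMD3100. Both ratios were lowest in the replicate 3 libraries of the 2 groups. As a description over the 6 libraries, which share the split by replicate number, the log2 CPM of Krt5 and Krt8 correlated with r = 0.984, that of Krt5 and Krt14 with 0.932, and that of Krt8 and its partner Krt18 with 0.386. In replicates 1 and 2 only (4 libraries) these values were 0.790, 0.120 and -0.963, so the correlation of Krt5 with Krt14 rested on replicate 3.

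**Figure D3:**
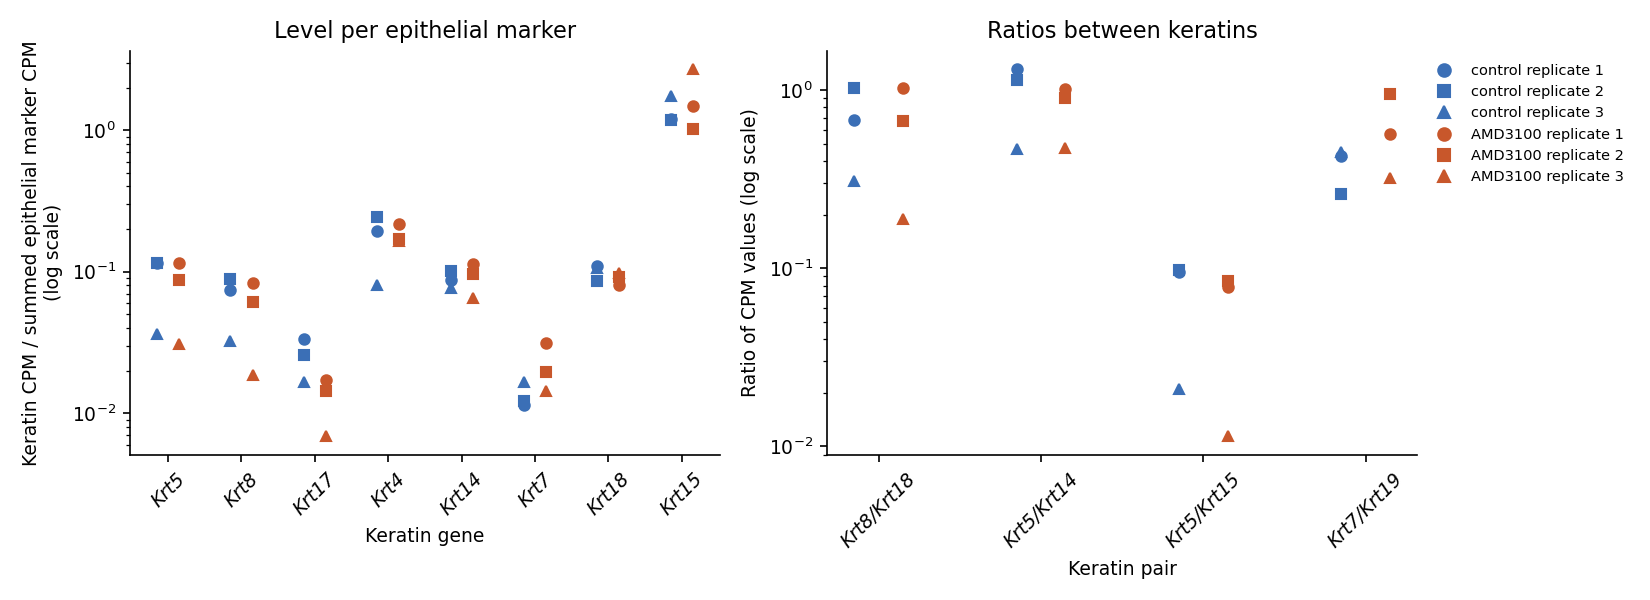
Left, the CPM of all keratins but Krt13 and Krt19 divided by the summed CPM of the epithelial markers in the same library, and right, ratios between keratins in the same library (log axes, 1 point per library). Krt18 per epithelial marker spans 1.34-fold over the 6 libraries, while Krt5 over Krt15 falls to 0.0209 and 0.0114 in the replicate 3 libraries.

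Since the epithelial share of a gland can differ between tubes, each keratin was also divided by the summed CPM of the epithelial markers of its library. On this scale the groups overlapped for all 10 keratins, while 0.507% of all genes tested were higher and 11.8% lower in AMD3100 without overlap. Krt7 per epithelial marker was 0.0113, 0.0122 and 0.0167 in the controls and 0.0314, 0.0196 and 0.0144 with AMD3100. AMD3100 replicate 3 was then below control replicate 3, whose epithelial sum was the lowest. The means were 0.0134 ± 0.00290 and 0.0218 ± 0.00875 (SD, n = 3 each), a log2 ratio of 0.65 (exact two-sided permutation p = 0.2). Without replicate 3 the log2 ratio was 1.08, and without AMD3100 replicate 1 it was 0.34. When Cdh1 was left out of the sum, an alternative chosen after seeing the data, the log2 ratios were 0.80 for Krt7 and -0.87 for Krt17, both without overlap and with an exact two-sided permutation p of 0.1, the smallest possible. Of all genes tested, 0.948% were higher and 7.22% lower without overlap on that scale.

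Krt17 had the most negative value on this scale, with a log2 ratio of -1.03 (exact two-sided permutation p = 0.2), which was -0.63 without AMD3100 replicate 3. Krt15 stood at 1.21, 1.17 and 1.73 in the controls and 1.47, 1.02 and 2.70 with AMD3100, a log2 ratio of 0.24. Krt18 was the steadiest keratin relative to the epithelial markers, at 0.109, 0.0865 and 0.105 in the controls and 0.0810, 0.0917 and 0.0983 with AMD3100. Replicates 1 and 2 remained above replicate 3 by 3.23-fold for Krt5 and 3.01-fold for Krt8 relative to the epithelial sum. In undivided CPM, where these ratios were 4.20 and 4.14, they were exceeded by the epithelial markers Cldn6 (6.56) and Rab25 (5.62), both named after their values were seen, and the other markers tested lay between 0.721 and 2.66. All 4 libraries of replicates 1 and 2 were above both replicate 3 libraries for 8 of the 17 markers, against 21.1% of all genes. When edgeR's library sizes were set to the epithelial marker totals, the median log2 fold change of all genes moved from 0.02 to -0.41, and the genes past both thresholds were 5 higher and 474 lower, against 54 and 174 with TMM. Krt7 then had a log2 fold change of 0.70 and did not pass (unadjusted p = 0.155).

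The sum of the epithelial markers was higher in every AMD3100 library than in every control, which rested on Cdh1. Without Cdh1 the sums were 526, 559 and 302 CPM in the controls and 582, 599 and 408 CPM with AMD3100, and the groups overlapped. Of the 17 tested, 0 passed both thresholds, and their median log2 fold change was 0.20, with 12 positive and 5 negative values, against 7100 and 6510 over all genes. The groups did not overlap for 2 of them, as for 7.44% of all genes. Cdh1, which encodes E-cadherin, was 336, 301 and 210 CPM in the controls and 344, 393 and 506 CPM with AMD3100, without overlap and with a log2 fold change of 0.55 (standard error 0.31). Cldn4, a tight junction gene named here after its values were seen, was the other marker without overlap, at 0.43 (standard error 0.28). Epcam, another epithelial adhesion gene, had a value of -0.05 and Lsr, of tricellular junctions, 0.44. Of the 16 mesenchymal markers, 0 passed, with a median of -0.03, and the most abundant, the collagen genes Col3a1, Col1a2 and Col1a1, had log2 fold changes of -0.01, -0.11 and 0.07. The groups did not overlap for 1 of them, Osr1, named after its values were seen. It was lower with AMD3100, at 148, 140 and 160 CPM against 184, 172 and 169 CPM in the controls, a log2 fold change of -0.23 (standard error 0.26).

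Outside the 10 members, the files held 42 other keratin symbols, of which 13 had no count in any library and 6 were tested. Of these 6, 0 passed both thresholds, and their median log2 fold change was -0.45. Krt6a, a type II partner of Krt17 that is induced in stressed and stratified epithelium, had a mean of 113 CPM, more than any member but Krt15 and Krt4. It was 106, 101 and 55.1 CPM in the controls and 171, 87.4 and 155 CPM with AMD3100, with a log2 fold change of 0.66 ± 0.38 (SE), with an unadjusted p of 0.116 in edgeR. Its groups overlapped, since AMD3100 replicate 2 was below 2 of the controls. With the replicate block Krt6a passed both thresholds, as did 4.39% of all genes, at 0.65 ± 0.28 (SE) and an unadjusted p of 0.0410 in edgeR. The keratin Krt23 had means of 20.6 and 18.8 CPM, and Krt10, of differentiating epidermis, had 12.4 and 7.27 CPM.

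Markers of cornified epithelium were looked at as a sign of skin or oral lining in the tubes, since Krt15, Krt5 and Krt14 are also expressed there. Of 25 listed genes, 24 were in the files, 2 were at 0 in every library, 10 were tested and 0 passed both thresholds. The sums of this list were 184, 183 and 165 CPM in the controls and 239, 151 and 343 CPM with AMD3100, and Krt6a was its most abundant gene. AMD3100 replicate 3 was the highest, as it was for Krt15. In that library Calml3, a calmodulin-like gene of stratified epithelium, was at 76.6 CPM against 8.65 to 21.7 CPM in the other 5, and Lgals7, the galectin of stratified epithelium, was at 54.2 CPM against 17.6 to 44.0 CPM. Sbsn and Sprr1a, of differentiating stratified epithelium and named after their values were seen, were also highest there, at 28.7 and 8.09 CPM. In the other 5 they were at most 23.6 and 3.9997 CPM. The remaining tested genes of the list were not highest in that library. Krt10 was at its lowest there, at 6.50 CPM, and Krt6a was below AMD3100 replicate 1. Krt1, of differentiating epidermis, was low in both replicate 3 libraries, at 0.796 and 0.981 CPM against 3.74 to 13.8 CPM in the other 4. Krtdap, Lor and Krt6b were at 6.01, 1.10 and 1.23 CPM in AMD3100 replicate 3. Krtdap reached 7.48 and Krt6b 1.44 CPM in AMD3100 replicate 1, and Lor 1.66 CPM in control replicate 1. The part of such tissue in the Krt15 level was not tested.

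Of the genes that anchor keratin filaments to desmosomes and hemidesmosomes, 22 were tested and 1, Evpl, passed both thresholds. Evpl encodes envoplakin, a plakin of the cornified envelope and desmosomes, and had means of 10.7 CPM in the controls and 21.6 CPM with AMD3100, a log2 fold change of 1.02 ± 0.36 (SE), with an unadjusted p of 0.0201 in edgeR. The study had picked Evpl from these libraries, so this is not independent evidence. The median over the 22 genes was 0.12. Dsp, the desmoplakin that ties keratins to desmosomes, was the most abundant, at 163, 154 and 52.3 CPM in the controls and 154, 211 and 153 CPM with AMD3100. Like Krt4, Dsp was low in control replicate 3 and not in AMD3100 replicate 3. With the replicate block Dsp passed as well, as did 4.39% of all genes, at 0.62 ± 0.26 (SE) and an unadjusted p of 0.0419 in edgeR. Jup (plakoglobin) was high in both replicate 3 libraries, at 233 and 184 CPM, and had a log2 fold change of -0.35. The value of Macf1, a cytoskeletal linker, was 0.03.

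Transcription factors known to act on keratin genes or epithelial identity were listed as well. Of 22 listed, 21 were tested, 0 passed both thresholds, and the median log2 fold change was 0.03. With the replicate block, 598 of all genes tested (4.39%) passed, 203 of them higher and 395 lower with AMD3100. Of the 21 factors, 2 then passed, both higher with AMD3100. They were Sox2, a factor of salivary progenitors, at a log2 fold change of 0.97 ± 0.28 (SE), with an unadjusted p of 0.00721 in edgeR, and Ehf, an epithelial ETS factor, at 0.72 ± 0.30 (SE), with 0.0396. Sox2 was 31.2, 14.8 and 9.66 CPM in the controls and 40.6, 31.8 and 26.7 CPM with AMD3100, higher in each same-numbered pair although the groups overlapped. The most abundant were Sox9, a factor of distal bud progenitors, with a log2 fold change of 0.20, Pitx1, a factor of oral epithelium, with 0.13, and Klf5, an epithelial Krüppel-like factor, with -0.05. Klf5 was 176, 169 and 30.5 CPM in the controls and 153, 142 and 67.3 CPM with AMD3100. Like Krt5, it was low in replicate 3 of both groups.

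Among the markers of other cells, 1 gene passed both thresholds. It was Fabp7, a fatty acid binding protein gene of glia, with means of 25.3 CPM in the controls and 7.21 CPM with AMD3100 and a log2 fold change of -1.82 ± 0.58 (SE), with an unadjusted p of 0.0126 in edgeR. The most abundant nerve genes, Prph, Tubb3 and Stmn2, had log2 fold changes of 0.37, 0.23 and 0.01. The most abundant muscle genes, Myog, Actc1 and Tnnt1, had values of -0.24, 0.13 and 0.47. With the replicate block, Myog (-1.16, unadjusted p = 0.00442 in edgeR), Myod1, another myogenic factor (-2.05, 0.0312), and the mesenchymal factor Twist1 (-0.97, 0.0193) also passed both thresholds, all lower. In that fit 598 of all genes tested (4.39%) passed, and 395 of these were lower. Endothelial markers summed to 89.5, 82.4 and 174 CPM in the controls and 61.1, 126 and 117 CPM with AMD3100, with Egfl7 most abundant, followed by Kdr and Pecam1 (log2 fold changes -0.17, 0.77 and -0.85). Myeloid markers summed to 134, 106 and 238 CPM and to 125, 140 and 188 CPM, with C1qa, Csf1r and Fcer1g at -0.16, 0.02 and -0.30. Erythroid markers, led by Hba-a1, Hbb-bs and Hbb-b1 (-0.34, -0.45 and -0.44), had negative values for 11 of 12 genes, and 0 passed. Over all 13610 genes tested, 6510 values were negative. Hbb-bs and Hbb-b1 had nearly the same counts in every library, so the 12 genes are not separate measurements. Hba-a1 was 4222, 11979 and 4828 CPM in the controls and 4294, 6693 and 5570 CPM with AMD3100, so its lower mean rested on control replicate 2.

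The genes whose log2 CPM followed a keratin most closely over the 6 libraries were sought among 8233 tested genes of at least 10 CPM on average. For Krt5 these were Jund, Nfix, Scamp4, Mia3 and Gatad2b (Pearson's r from 0.998 to 0.999), and for Krt14 they were Prkar2a, Pkp4, Prkcsh, Tigd2 and Zmym5 (0.990 to 0.998). For Krt7 they included Ap3d1, Mbd3, Nol11 and Plac9b (0.961 to 0.979), and for Krt18 Dmpk, Ankzf1, Ubap2, Israa and Fam63a (0.951 to 0.961). Scamp4, for example, was 59.6, 58.9 and 11.3 CPM in the controls and 67.1, 50.2 and 17.9 CPM with AMD3100, low in replicate 3 as Krt5 was. Nol11 was 34.0, 37.5 and 32.2 CPM in the controls and 63.1, 44.5 and 36.3 CPM with AMD3100, where AMD3100 replicate 3 was below 1 control. Such values are the highest of 8233 over 6 libraries that share the split by replicate number, and no p is given.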

How the data were processed

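Read counts per gene symbol, as the authors deposited them for each of the 6 libraries, were used without change. They come from QuantSeq 3′ mRNA libraries read as 50 bp single reads. The submitters' processing notes name Bowtie2, edgeR and the build mm10; versions, the counter and the annotation are not given in the sources used here, nor is the use of molecular identifiers or how reads matching several places were treated. Of 23282 lines, 22 repeats of a symbol with the same counts were left out. Depths were 9051595 to 14393031 counts, of which Rn45s, a ribosomal RNA precursor, took 16.2% to 32.5%.

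Groups and replicate numbers were taken from the labels. Genes were tested in R 4.3.3 with edgeR 4.0.16 (TMM, filterByExpr, glmQLFit without robust estimation, glmQLFTest, condition as the only term), with Benjamini-Hochberg adjustment over 13610 genes. The study's methods name quantile normalization and an equal-variance test, and the thresholds of its main text (fold change over 1.5, unadjusted p under 0.05) were kept. A figure legend of the study gives an absolute log2 fold change of at least 1 instead. Across genes, deviations from the group means correlated between same-numbered libraries with r = 0.185, 0.171 and 0.584, each over 0.1, so the numbers, which come from the labels, were taken as pairs for the fit with the replicate block. Libraries of unlike numbers 1 and 2 correlated about as much (0.198 for control 2 and AMD3100 1, 0.146 for control 1 and AMD3100 2), so the data set replicate 3 apart from the rest more clearly than they match replicates 1 and 2. On simulated data with known changes the fits were tested first. Other fits were DESeq2 1.42.0, limma-voom 3.58.1 and those in the closing section. Ratios were compared with exact permutation tests.

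Genes named were the 10 keratins, of every other list the 3 tested genes of highest mean CPM and those past both thresholds (those past them only with the block were added after their values were seen), and for Krt5, Krt7, Krt14 and Krt18 the 5 genes of highest r (log2 of CPM + 0.5), of which 1 is not reported here. Members and lists were chosen with earlier results of these data known. Reads of 50 bases every 25 bases from the last 300 bases of each gene were aligned to NCBIM37 with minimap2 2.31-r1302, which is not the build of the counts. A match elsewhere was counted when its alignment score was within 10 of the best. Of 13 listed mitochondrially encoded genes, 0 were in the files. The promoter table matched 6 of the 10 members. The study's imaging, qPCR and methylation data were not used here.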

Additional observations from a re-analysis of the deposited data

How the results depend on the processing

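No keratin had an adjusted p under 0.05 in the main comparison or in any alternative. The number past both thresholds was 1 in the main comparison, 2 with the replicate block (Krt7 and Krt15), 0 with library sizes set to the epithelial marker totals, and 0 to 2 with 1 library left out, where it was 0 without control replicate 1 or AMD3100 replicate 1, 1 without control replicate 3 (Krt17 in place of Krt7, whose p was 0.0573), and 2 without AMD3100 replicate 2 (Krt7 and Krt15). With the block, the other keratin Krt6a and, outside the keratins, Dsp, Sox2, Ehf, Twist1, Myog and Myod1 also passed, and it changed no other call among the listed genes. Over all genes, 228 passed both thresholds, against 598 with the block, 479 with epithelial totals, 613 in replicates 1 and 2 only and 163 to 547 with 1 library left out. The keratins whose groups did not overlap numbered 1, and 0 with epithelial totals, 3 in replicates 1 and 2 only (Krt14, Krt17 and Krt7), where 37.0% of all genes tested did not overlap either, and 1 to 3 with 1 library left out, where 12.8% to 23.1% did not. The cause of these shifts was not tested.

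Krt7 passed both thresholds in 12 of 16 alternatives and kept its direction in all 16, with log2 fold changes of 0.70 to 1.26 outside the fits with 1 library left out and 0.76 to 1.32 in those. Krt14, Krt15, Krt17 and Krt19 also kept their directions, with ranges of 0.10 to 0.59, 0.27 to 0.98, -1.07 to -0.34 and 0.16 to 0.84 when 1 library was left out. The signs of the others depended on the setting. With quantile normalization and limma-voom, Krt8 was at 0.0057 and Krt13 at 0.0063. With epithelial totals, Krt5 was at -0.19 and Krt18 at -0.15. In replicates 1 and 2 only, Krt5 was at -0.039, Krt18 at -0.028 and Krt4 at -0.023. With 1 library left out, Krt5 ranged from -0.42 to 0.41, Krt8 from -0.45 to 0.38, Krt18 from 0.02 to 0.40, Krt4 from -0.11 to 0.75 and Krt13 from -0.54 to 0.37. Krt13 could not be tested with at least 10 counts in every library.

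Per epithelial marker, Krt14 was at -0.045 and Krt19 at -0.016 when Epcam and Cdh1 alone were used, and Krt19 was at -0.056 and Krt4 at -0.17 in replicates 1 and 2 only. With Cdh1 left out of the sum, chosen after seeing the data, Krt18 was at 0.0068. With 1 library left out, the log2 ratio ranged from 0.34 to 0.91 for Krt7, -1.30 to -0.63 for Krt17, -0.76 to 0.36 for Krt5, -0.16 to 0.25 for Krt14, -0.14 to 0.57 for Krt15, -0.84 to 0.25 for Krt8, -0.24 to 0.47 for Krt19, -0.24 to 0.56 for Krt4 and -1.19 to 0.057 for Krt13. Krt13 had 8 to 67 counts in a library. Krt7 and Krt17 had their fewest reads in replicate 3, at 86 and 107 for Krt7 and 85 and 51 for Krt17 (control and AMD3100). How far depth limits these values was not tested.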
